A study of Homo sapiens with 12 samples.

Results

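The glutathione and thioredoxin enzyme families were taken as all genes whose symbol begins with GPX, PRDX, MGST or TXN (without the TXNDC and TXNL genes), or with GST and the letter of a cytosolic or mitochondrial class. RefSeq lists 41 protein-coding genes of these families. Of them, 7 had a row in at least 1 of the deposited tables: PRDX1, TXNRD2, GSTP1, GSTZ1, GSTM3 and GSTM2 in the RSL3 table of 1810 genes, and PRDX1, GSTM3 and TXNIP in the ATOH8 table of 1424 genes. PRDX1 and GSTM3 were in both. The other 34 protein-coding members, among them all 8 GPX genes and all 3 MGST genes, had no row and were not analysed here, GPX4, the protein target of RSL3, included.

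The samples were 12 RNA-seq libraries in 4 groups of 3, all from DU145, an established line of human prostate cancer cells. Wild-type cells received DMSO, the solvent, or RSL3, a covalent inhibitor of GPX4 that triggers ferroptosis, for 24 h. Cells labelled OE CTRL carried a control for overexpression and cells labelled OE ATOH8 overexpressed ATOH8, a transcription factor of the basic helix-loop-helix class, and neither of these groups is labelled with a drug. The first pair of groups asked which genes respond when cells are driven towards ferroptosis, and the second which genes follow ATOH8. The labels name neither the dose of RSL3 nor the vector, and they do not say whether replicates were separate cultures or whether the overexpressing cells were 1 clone, so p-values measure only the spread between these libraries, which may be technical.

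Glutathione and thioredoxin are the cell's main carriers of thiol reducing power, and both draw on NADPH. Glutathione peroxidases (GPX) and peroxiredoxins (PRDX) use them to reduce hydrogen peroxide and organic peroxides, and thioredoxin reductases (TXNRD) recharge thioredoxin. Glutathione S-transferases (GST) join glutathione to electrophiles such as the aldehydes left by lipid peroxidation, and TXNIP binds reduced thioredoxin and restrains it. Ferroptosis is a death by membrane lipid peroxidation that GPX4 normally holds off, and several of these genes are textbook targets of NRF2, which switches on antioxidant genes.

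Both tables hold only genes that the authors had called changed, so a member's presence is itself a selection and its call adds little. In the RSL3 table, 82% of all tested genes passed the test used here (43.1% higher and 38.9% lower), and in the ATOH8 table all of them, 100%, did (41.4% higher and 58.6% lower). The reads of the listed genes summed to between 2523743 and 3096832 per library in the RSL3 table and between 1508188 and 2226518 in the ATOH8 table, which are not library depths. DMSO and RSL3 replicates 1 stood apart from replicates 2 and 3: set against counting error over the listed genes, the chi-square of replicates 2 and 3 divided by its degrees of freedom was 1.65 (DMSO) and 1.80 (RSL3), with 1 the value for counting error only, whereas the lowest value of a pair with replicate 1 was 112. The RSL3 groups may therefore hold fewer than 3 independent samples. Of 12 markers of prostate and epithelial cells, CDH1 and EPCAM were listed in the RSL3 table and CDH1 and KRT8 in the ATOH8 table. Each of these passed the test on the lower side. The luminal prostate marker KLK3 had no row in either table. Of 6 markers of leukocytes and macrophages, the RSL3 table listed CD68, at 1607, 829 and 787 in DMSO and 4290, 1535 and 1498 in RSL3. These groups overlap (2.27-fold, limma adjusted p = 0.0538, or 0.00282 with the replicate block; 1.41-fold without RSL3 replicate 1), PTPRC had no row, and the part of this marker in the members' changes was not tested.

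With RSL3, the 6 listed members moved in both directions. PRDX1, TXNRD2, GSTP1 and GSTZ1 were higher by 1.35-fold to 1.65-fold, and both mu-class transferases, GSTM3 and GSTM2, were lower by 1.54-fold and 2.14-fold. All 6 passed limma at an adjusted p of 0.05 over the listed genes, a share to be read against the 82% of all tested genes that did, and all 6 passed with the replicate number as a block, as 99.3% did. With DMSO replicate 2 or 3 or RSL3 replicate 2 or 3 left out, no member passed (lowest limma adjusted p = 0.0524, for GSTP1 without RSL3 replicate 3). Few of all tested genes did either: 6 and 8 of 1744 without DMSO replicate 2 or 3. Without RSL3 replicate 2 or 3, 352 of 1783 and 317 of 1780 did. In all 6 the DMSO and RSL3 libraries did not overlap, as in 86.4% of the listed genes (48.5% higher and 37.8% lower). The members' median log2 difference was 0.47, beside 0.51 for all tested genes. No member passed when every one of 59792 annotated genes was counted as a test (limma adjusted p = 1 for each), as 0% of all tested genes did. The largest unadjusted limma p of the 6 was 0.0402, for GSTZ1. An unadjusted p is never above its adjusted p. That all 6 lay below 0.05 therefore follows from the calls above and adds no support.

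PRDX1 (chromosome 1, 45511051 to 45522890, GRCh38, minus strand) encodes peroxiredoxin 1, an abundant cytosolic enzyme that reduces hydrogen peroxide with electrons from thioredoxin. Its normalised read count, which is reads divided by the authors' size factor for each library, was 5660, 7229 and 7239 in DMSO replicates 1, 2 and 3 and 9494, 9136 and 9413 in the RSL3 replicates. The lowest RSL3 library lay above the highest DMSO library, and DMSO replicate 1 was the lowest of all. In bulk RNA, a change of RNA per cell and a change in the share of cells that make it cannot be told apart. From 6710 ± 909 (SD, n = 3) to 9348 ± 188 (n = 3), PRDX1 rose 1.39-fold, at a log2 fold change of 0.49, SE 0.18, limma adjusted p = 0.0441. The rise was 1.68-fold between the libraries numbered 1 and 1.28-fold over those numbered 2 and 3, and the call ended without DMSO replicate 1 (log2 fold change 0.37, adjusted p = 0.0569). Of the 929 genes on the higher side, 5.06% had a smaller log2 fold change than PRDX1.

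TXNRD2 (chromosome 22, 19875522 to 19941818, minus strand) encodes the mitochondrial thioredoxin reductase, a selenoprotein. It had normalised counts of 5364, 4145 and 4021 in DMSO and 7993, 5971 and 5982 in RSL3. Replicate 1 was the highest of its group in both, and the groups did not overlap. TXNRD2 rose 1.47-fold (4510 ± 742 in DMSO and 6649 ± 1164 in RSL3, n = 3 each; log2 fold change 0.56, SE 0.21, limma adjusted p = 0.0441), with nearly the same size in replicate 1 (1.49-fold) and in replicates 2 and 3 (1.46-fold). Without RSL3 replicate 1, which leaves DMSO replicate 1 unmatched, its adjusted p was 0.061. Whether the counting used strand is not given in the sources used here.

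**Figure D1:**
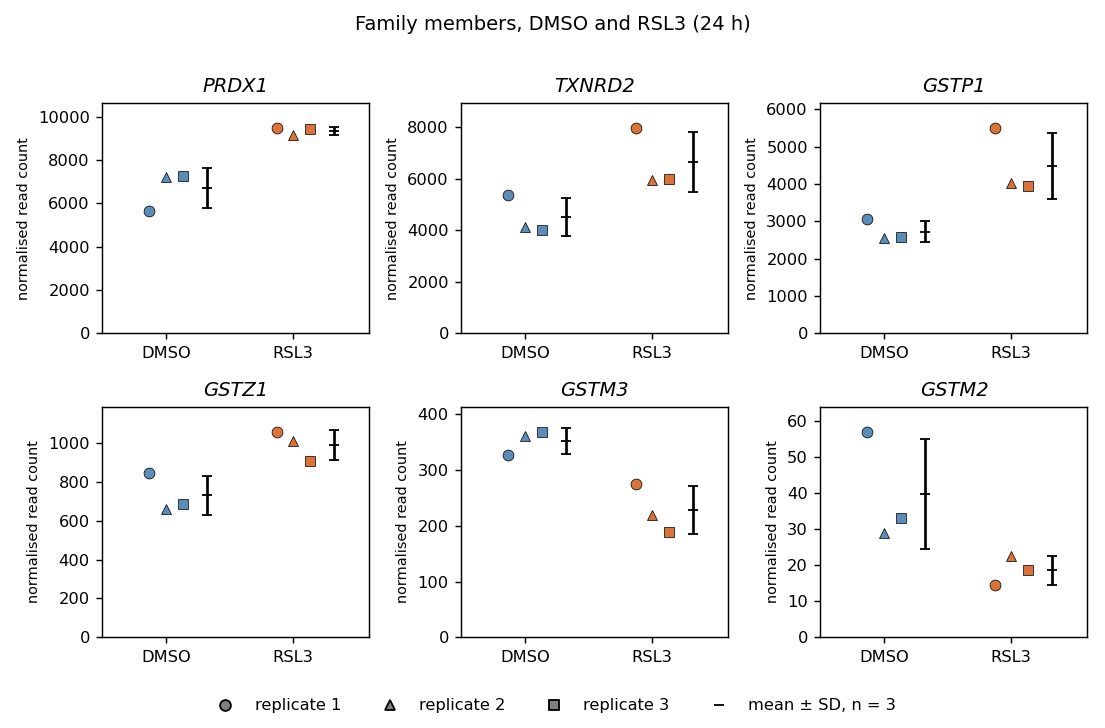
Normalised read count (vertical axes, from 0) of the 6 family members listed in the RSL3 table, in DMSO and RSL3 libraries; circles, triangles and squares are replicates 1, 2 and 3, and the bar is the mean ± SD (n = 3). The RSL3 libraries lie above the DMSO libraries for PRDX1, TXNRD2, GSTP1 and GSTZ1 and below them for GSTM3 and GSTM2, and replicate 1 often sits away from the other 2.

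GSTP1 (chromosome 11, 67583812 to 67586653, plus strand) encodes the pi-class glutathione S-transferase, a cytosolic enzyme that prostate tumours often silence by promoter methylation. The 250 bases before its RefSeq start are shown, since GSTP1 had the largest increase of the family under RSL3 and its window holds the core of the antioxidant response element, the motif bound by NRF2. The capitals mark that core, TGACNNNGC. The window is chr11:67583562-67583811 (GRCh38.p14, plus strand, sequence from RefSeq).
GSTP1: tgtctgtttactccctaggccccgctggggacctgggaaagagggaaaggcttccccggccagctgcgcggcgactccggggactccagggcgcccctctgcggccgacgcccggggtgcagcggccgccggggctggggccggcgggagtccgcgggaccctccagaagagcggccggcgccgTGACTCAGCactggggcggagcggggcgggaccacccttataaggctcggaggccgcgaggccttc
The match begins 66 bases before the start. Windows were at hand for 6 of the 7 members, and in the other 5 neither strand held the motif. Of all 35116 RefSeq windows of this length, 10.9% held it. A match of letters does not show that a factor binds there.

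GSTP1 had normalised counts of 3049, 2540 and 2572 in DMSO and 5511, 4017 and 3949 in RSL3. All 3 RSL3 libraries lay above all 3 DMSO libraries, and replicate 1 was the highest of each group. GSTP1 rose 1.65-fold (2720 ± 285 to 4492 ± 883, n = 3 each; log2 fold change 0.71, SE 0.20, limma adjusted p = 0.0309), by 1.81-fold in replicate 1 and 1.56-fold in replicates 2 and 3. Of the 4 higher members, GSTP1 alone kept its limma call without DMSO replicate 1 (adjusted p = 0.0243) and without RSL3 replicate 1 (0.0229).

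GSTZ1 (chromosome 14, 77321002 to 77331597 in the deposited table, plus strand) encodes the zeta-class transferase, which isomerises maleylacetoacetate in tyrosine breakdown. Its counts were 847, 660 and 689 in DMSO and 1060, 1009 and 907 in RSL3. The closest pair, DMSO replicate 1 and RSL3 replicate 3, differed by less than either group's SD. GSTZ1 was 1.35-fold higher (732 ± 101 and 992 ± 78.1, n = 3 each; log2 fold change 0.44, SE 0.18, limma adjusted p = 0.0494), and its sign turned to -0.03 with libraries scaled to their listed totals. The call ended without a filter on low counts (adjusted p = 0.0501), with genes under a mean of 50 left out (0.051) and without RSL3 replicate 1 (0.0656).

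The mu-class genes moved the other way. GSTM3 (chromosome 1, 109733937 to 109741038, minus strand) encodes a glutathione transferase best known from brain and testis. It is shown by its 250 bases upstream, since it was lower in both comparisons and its window holds 1 E-box, CANNTG, the motif that basic helix-loop-helix factors such as ATOH8 and TCF3 bind as a class. The window is chr1:109741039-109741288 (GRCh38.p14, minus strand, sequence from RefSeq), with the E-box in capitals.
GSTM3: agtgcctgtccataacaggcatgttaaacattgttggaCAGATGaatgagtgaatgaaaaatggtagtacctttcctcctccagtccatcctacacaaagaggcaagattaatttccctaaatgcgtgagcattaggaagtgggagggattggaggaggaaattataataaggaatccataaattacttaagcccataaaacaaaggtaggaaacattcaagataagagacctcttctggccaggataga
The E-box begins 212 bases before the start. This motif is common: 61.8% of all windows held at least 1, and of the members' windows only those of GSTM3 and GSTP1 did. The narrower palindrome CACGTG, which is contained in CANNTG, was in 6.34% of all windows and in none of the members' windows. These letters say nothing of binding in either gene.

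GSTM3 had normalised counts of 326, 361 and 369 in DMSO and 275, 219 and 190 in RSL3. Every RSL3 library was lower than every DMSO library, and the gap was narrowest in replicate 1. GSTM3 fell 1.54-fold (352 ± 22.7 to 228 ± 43.4, n = 3 each; log2 fold change -0.64, SE 0.21, limma adjusted p = 0.0388), by 1.19-fold in replicate 1 and 1.79-fold in replicates 2 and 3. Its call remained without DMSO replicate 1 (adjusted p = 0.034) and without RSL3 replicate 1 (0.0167).

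GSTM2 (chromosome 1, 109668057 to 109683997, plus strand) encodes another mu-class transferase, and it rested on few reads. The recovered reads were 52, 38 and 38 in DMSO and 10, 24 and 20 in RSL3, and as normalised counts 57.2, 29 and 33.2 against 14.5, 22.5 and 18.8. DMSO replicate 1 was the highest library and RSL3 replicate 1 the lowest. GSTM2 fell 2.14-fold (log2 fold change -1.02, SE 0.37, limma adjusted p = 0.0432). The size was 3.95-fold in replicate 1 and 1.51-fold in replicates 2 and 3, and the call ended without DMSO replicate 1 (adjusted p = 0.075) or RSL3 replicate 1 (0.0776). GSTM1, GSTM2, GSTM4 and GSTM5 are close relatives in 1 cluster, so an aligner can share reads among them, and GSTM2 alone of these had a row.

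Per kilobase of the principal GENCODE transcript, the order of levels in DMSO was PRDX1 (5437 ± 736 normalised reads per kilobase, n = 3), GSTP1 (2831 ± 297), TXNRD2 (2132 ± 351), GSTZ1 (547 ± 75.3), GSTM3 (87.1 ± 5.62) and GSTM2 (34.4 ± 13.1). The order was the same with RSL3, from 7575 ± 152 for PRDX1 to 16.1 ± 3.47 for GSTM2. Neighbours in the order did not overlap between libraries in either group. The closest were GSTP1 and TXNRD2, whose means differed by about as much as the sum of their SDs, and each library had more GSTP1 than TXNRD2.

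The scale of the libraries sets how these changes read. With libraries scaled over the listed genes by totals, TMM or relative log expression, the median of all tested genes moved by -0.47, -0.29 and -0.31 (log2), and the share of calls on the higher side fell from 52.6% to 24.2%, 30% and 28.8%. PRDX1 then had log2 fold changes of 0.01, 0.20 and 0.18, TXNRD2 0.09, 0.27 and 0.25, and GSTZ1 -0.03, 0.16 and 0.14, with none passing. GSTP1 kept its call under TMM and relative log expression (0.42 and 0.40) and missed it under totals (0.24, limma adjusted p = 0.0564), while GSTM3 (-1.11, -0.93 and -0.95) and GSTM2 (-1.47, -1.29 and -1.31) passed under all 3. Relative to the median of all tested genes, as reported, PRDX1 stood at -0.02, TXNRD2 at 0.05, GSTZ1 at -0.07, GSTP1 at 0.20, GSTM3 at -1.15 and GSTM2 at -1.53. PRDX1, TXNRD2 and GSTZ1 thus lay within 0.07 of the median listed gene. That median falls among the smallest increases, as 929 tested genes were higher and 803 lower. Of the 929, 2.26% had a smaller change than GSTZ1, 5.06% than PRDX1 and 13% than TXNRD2. A rescaling moves every gene and the median together, so these distances stay nearly the same under each scaling. These scalings assume that the listed genes, all of them called changed, balance out.

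**Figure D2:**
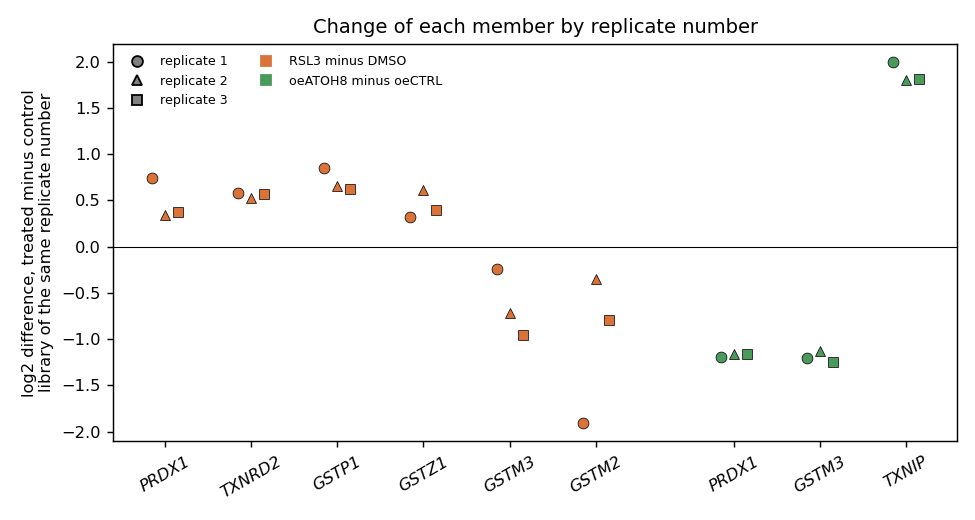
Log2 difference (vertical axis) between the treated and the control library of the same replicate number, for each member in each comparison; orange is RSL3 minus DMSO and green oeATOH8 minus oeCTRL, and shapes are replicates 1, 2 and 3. Under RSL3, GSTM2 runs from -1.91 in replicate 1 to -0.35 in replicate 2, while the ATOH8 values of PRDX1 and GSTM3 lie between -1.25 and -1.12; in the ATOH8 table the numbers only name the libraries.

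With ATOH8 overexpression, 3 members were listed: PRDX1 and GSTM3 were lower and TXNIP was higher. PRDX1 fell 2.25-fold, GSTM3 fell 2.29-fold and TXNIP, the thioredoxin inhibitor, rose 3.68-fold. All 3 passed edgeR's quasi-likelihood test, as 100% of the listed genes did, and all 3 passed with 75204 genes and assembled loci counted as tests, as 82% of the listed genes did. The groups did not overlap for any of the 3, as for 99.6% of the listed genes (41.4% higher and 58.3% lower). Directions held under every scaling tried. The members' median log2 fold change was -1.17, beside -1.10 for all listed genes.

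PRDX1 had 14067, 13624 and 13839 reads in oeCTRL replicates 1, 2 and 3 and 6135, 6157 and 6572 in the oeATOH8 replicates. Every oeATOH8 library was far below every oeCTRL library, and the spread within groups was small. As scaled counts it fell from 13992 ± 311 to 6221 ± 222 (SD, n = 3 each), at a log2 fold change of -1.17, SE 0.05. The edgeR adjusted p was 2.17e-09 over the listed genes and 1.15e-07 with all genes counted as tests. The table has no gene changed by less than about 2-fold on this scale, and 23.7% of the 835 lower genes had a smaller change than PRDX1. Under scaling by relative log expression, TMM or totals over the listed genes, the PRDX1 value was -0.26, -0.86 and -1.63, and the median of all listed genes moved by 0.91, 0.30 and -0.46.

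Reads of GSTM3 numbered 1477, 1410 and 1403 in the oeCTRL libraries against 637, 652 and 626 in oeATOH8. The groups stood further apart here, relative to their spread, than in the RSL3 table, where they did not overlap either. As scaled counts GSTM3 fell from 1445 ± 13.9 to 632 ± 32.8 (n = 3 each; log2 fold change -1.19, SE 0.07, edgeR adjusted p = 4.27e-08). Under the same 3 scalings its value was -0.28, -0.89 and -1.65, each passing.

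TXNIP (chromosome 1, 145992435 to 145996579, minus strand) encodes an alpha-arrestin that binds thioredoxin and also limits glucose uptake. Its reads numbered 417, 350 and 391 in the oeCTRL libraries against 1661, 1229 and 1463 in oeATOH8. The lowest oeATOH8 library was far above the highest oeCTRL library. TXNIP rose from 390 ± 23.6 to 1432 ± 177 scaled counts (n = 3 each; log2 fold change 1.88, SE 0.10, edgeR adjusted p = 1.68e-08), and 87.9% of the 589 higher genes had a smaller change. TXNIP was above the median of all listed genes, itself at -1.10, by 2.98 (log2). This distance was the same under each scaling, since a scaling moves every gene and the median together. The thioredoxins TXN and TXN2 and TXNRD1, the cytosolic reductase that recharges thioredoxin, had no row in either table.

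**Figure D3:**
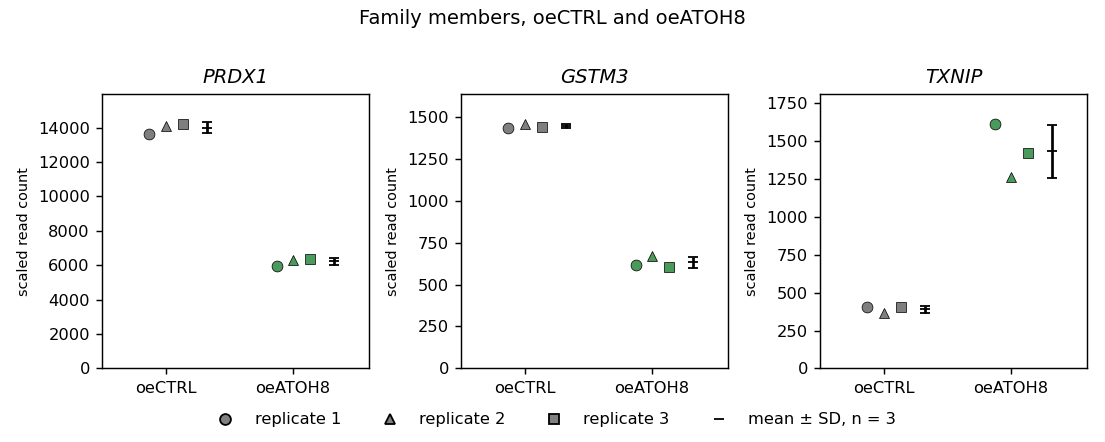
Scaled read count (vertical axes, from 0) of PRDX1, GSTM3 and TXNIP in oeCTRL and oeATOH8 libraries; shapes are replicates 1, 2 and 3 and the bar is the mean ± SD (n = 3). PRDX1 falls from 13992 to 6221 and GSTM3 from 1445 to 632, while TXNIP rises from 390 to 1432, with no overlap between groups.

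Per kilobase, PRDX1 (11340 ± 252 scaled reads per kilobase) was followed by GSTM3 (357 ± 3.43) and TXNIP (133 ± 8.07) in oeCTRL. In oeATOH8 the last pair changed places, with PRDX1 at 5041 ± 180, TXNIP at 490 ± 60.6 and GSTM3 at 156 ± 8.10 (n = 3 each). No neighbours in either order overlapped between libraries. Levels cannot be set against those of the RSL3 table, which was scaled separately.

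The oeATOH8 libraries also held globin transcripts. Of 11 erythroid markers, 3 (HBB, HBA1 and HBA2) were listed, with summed scaled counts of 12.6, 7.25 and 4.12 in oeCTRL and 55110, 3224 and 12810 in oeATOH8. The other erythroid markers, among them ALAS2, SLC4A1 and AHSP, had no row. As only genes called changed are listed, this does not show that they were absent. Of 5 fibroblast markers, COL1A2 and COL3A1 were listed, with sums of 4.85, 0 and 10.3 in oeCTRL and 155, 130 and 196 in oeATOH8. The globin sum varied widely among the oeATOH8 libraries, where PRDX1 ran from 5967 to 6376 and TXNIP from 1262 to 1615 scaled counts. The part of these transcripts in the changes of the members was not tested.

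PRDX1 and GSTM3, the members listed in both tables, allow a ratio within each library that no scaling can alter. It was chosen after the values were seen. Reads of PRDX1 per read of GSTM3 were 17.3, 20.0 and 19.6 in DMSO and 34.5, 41.6 and 49.7 in RSL3. All RSL3 libraries were higher, with means of 19.0 ± 1.44 and 41.9 ± 7.58 (n = 3 each) and a log2 difference of 1.13. The exact permutation p was 0.1, two-sided, the smallest that 3 against 3 can give. RSL3 libraries already lay above DMSO for PRDX1 and below for GSTM3. The separation of the ratio and its p therefore followed from those values and add no support. In the other table the ratio was 9.52, 9.66 and 9.86 in oeCTRL and 9.63, 9.44 and 10.5 in oeATOH8, groups that overlapped, with a log2 difference of 0.02 (exact permutation p = 0.9). By this ratio PRDX1 and GSTM3 moved apart under RSL3, as their separate changes require, and by nearly the same factor with ATOH8. The ATOH8 table has no gene changed by less than about 2-fold, and both are lower genes near that limit. A small difference between them is thus partly given. The difference between the comparisons was not tested.

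**Figure D4:**
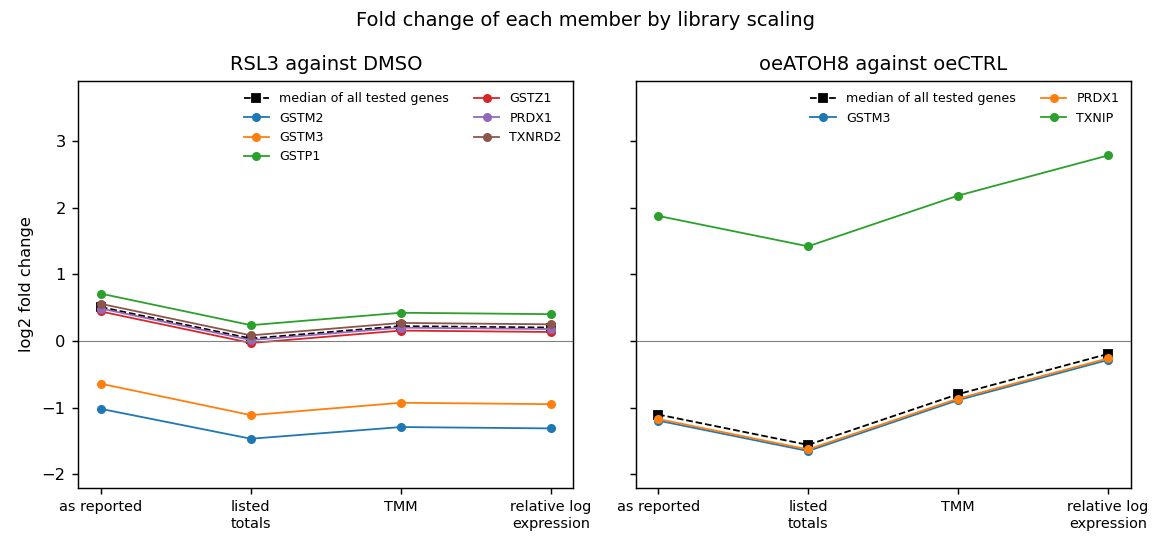
Log2 fold change (vertical axis) of each member as reported and with libraries scaled over the listed genes by totals, TMM or relative log expression (horizontal axis); the dashed black line is the median of all tested genes. PRDX1, TXNRD2 and GSTZ1 lie near the median under RSL3, with GSTM3 and GSTM2 below it. Under ATOH8 PRDX1 and GSTM3 lie near it and TXNIP above. A scaling moves all genes and the median together, so the distances to the median hardly change by construction.

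Other genes of the same pathways came from a list of 109 genes, covering glutathione synthesis, cystine uptake, NADPH supply, partners of thioredoxin, other antioxidant enzymes, selenoproteins and regulators. With RSL3, 7 of them had a row and all 7 passed limma, 6 higher and 1 lower, as 82% of all tested genes did (43.1% higher and 38.9% lower), with a median log2 fold change of 0.64 beside 0.51 for all tested genes. SRXN1, sulfiredoxin, which restores peroxiredoxins inactivated by overoxidation, rose 1.64-fold (4693 ± 1054 to 7706 ± 374, n = 3 each, limma adjusted p = 0.0307), and its DMSO replicate 1 (5909) was closest to the RSL3 libraries. PGLS and PGD, enzymes of the pentose phosphate pathway that makes NADPH, rose 1.57-fold and 1.42-fold (adjusted p = 0.0339 and 0.0425). The haem oxygenase HMOX1 and SLC3A2, the heavy chain of the cystine carrier, rose most (4.76-fold and 3.49-fold), each highest in RSL3 replicate 1. With RSL3 replicate 1 left out the fold was 2.72 for HMOX1 and 1.85 for SLC3A2, and with DMSO replicate 1 left out it was 7.78 for HMOX1. TXNL4B, a splicing factor with a thioredoxin fold, rose 1.39-fold. PTGES, a glutathione-dependent prostaglandin E synthase related to the MGST family, fell 1.36-fold (2285 ± 50.4 to 1680 ± 24.5, n = 3 each, adjusted p = 0.04). No gene of glutathione synthesis and breakdown, and none of the selenoprotein list, had a row here.

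With ATOH8, 9 of the 109 had a row, 3 higher and 6 lower, all passing edgeR, as 100% of the listed genes did (41.4% higher and 58.6% lower), with a median log2 fold change of -1.21 beside -1.10 for all listed genes. The sestrins, stress proteins linked to peroxiredoxin repair and to nutrient signalling, were split: SESN2 rose 2.25-fold (edgeR adjusted p = 1.1e-08) while SESN3 fell 2.07-fold (2.43e-07) and SESN1 fell 2.38-fold (4.03e-05). MAFF, a small partner of NRF2 on DNA, rose 2.37-fold (1433 ± 56.4 to 3402 ± 126, n = 3 each, edgeR adjusted p = 1.7e-08). HMOX1 fell 2.31-fold (3492 ± 101 to 1510 ± 45.4, n = 3 each), against its rise under RSL3. ABCC2, an exporter of glutathione conjugates, fell 3.04-fold, the secreted selenoprotein SELENOP 4.48-fold and GGT1, which cleaves extracellular glutathione, 2.62-fold. EEFSEC, the elongation factor that brings selenocysteine to the ribosome, rose 2.45-fold.

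**Figure D5:**
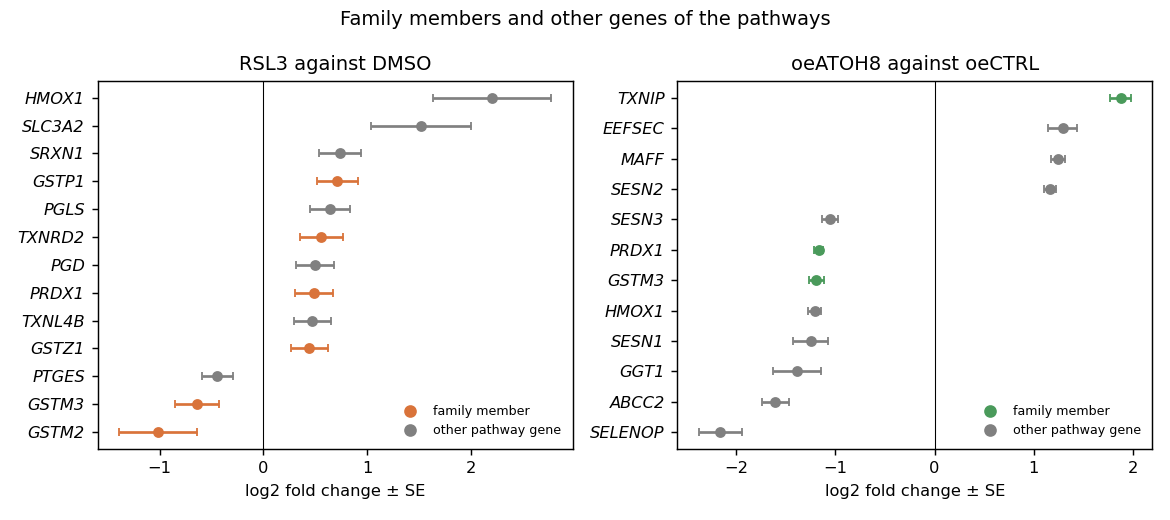
Log2 fold change ± SE (horizontal axes) of the family members (coloured) and of the other listed pathway genes (grey), for RSL3 against DMSO (left, limma) and oeATOH8 against oeCTRL (right, edgeR), ordered by size. PRDX1 is at 0.49 on the left and at -1.17 on the right, HMOX1 at 2.21 and -1.21, and GSTM3 is below 0 in both.

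The genes whose pattern over the 6 libraries was most like that of PRDX1 in the RSL3 table were PLEK2 (1.36-fold higher), YRDC (1.34-fold) and GJD3 (1.49-fold). Their centred log2 values differed from those of PRDX1 by a root-mean-square of 0.08, 0.08 and 0.10, where the median of 1376 named genes with a mean of at least 50 was 0.51. For TXNRD2 they were PSMD9, AIFM2 and ATF6B (0.01, 0.02 and 0.02, median 0.38), at 1.46-fold, 1.51-fold and 1.47-fold higher. In the ATOH8 table FBXO9 (2.24-fold lower), AP5M1 (2.23-fold) and DNAJB4 (2.31-fold) were closest to PRDX1, at 0.02, 0.04 and 0.04 against a median of 0.60 over 1053 genes. All of these were picked out of genes already called changed.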

How the data were processed

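RNA of 12 DU145 libraries was measured. RNA extraction used TRIzol, per the labels. The tools fastp, StringTie, HISAT2 and DESeq2 and the build hg38 (GRCh38) are named in the submitters' processing notes, which give no version and no role. The deposited RSL3 table holds a signal per gene and library. All values (100%) were whole multiples of 1 step per library within 0.001, as reads divided by a size factor are, so reads were recovered. In the deposited ATOH8 table the values are raw counts; its NC columns were taken as oeCTRL and its OE columns as oeATOH8. RSL3 rows were named by RefSeq span (1065 the same, 707 by overlap of at least 0.5 both ways, 12 from GENCODE, 26 unnamed), and 1146 ATOH8 rows had a symbol. The strand had to match where the strand of the RefSeq gene was at hand. For PRDX1, whose row had the same span, it was not.

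The RSL3 test was limma's (version 3.58.1) with a trended variance on log2(value + 1), over the 1732 genes that filterByExpr kept at a minimum count of 10 and total of 15. It had group as its only term, without the replicate block. The ATOH8 test was the quasi-likelihood test of edgeR (version 4.0.16) on counts scaled within groups by median ratio and between groups so that the gap without genes (-0.97 to 1.03) was centred on 0, which assumes symmetric fold limits of the authors. DESeq2 (version 1.42.0) was an alternative, under R 4.3.3. All p-values are two-sided and were adjusted by Benjamini-Hochberg over each table, with 0.05 as the threshold, and the code was tested on simulated data. Fold changes are ratios of group means. Deviations of equal replicate numbers correlated at 0.61, 0.47 and 0.44 in the RSL3 table, so by the rule used the numbers were taken to pair those samples. DMSO replicate 2 with RSL3 replicate 3 (0.47) and DMSO replicate 3 with RSL3 replicate 2 (0.50) correlated as highly, so the numbers set replicate 1 apart and do not tell 2 from 3. The main RSL3 test left this pairing out, so the p-values given for each member are unpaired. With the replicate block, the members' limma adjusted p ran from 0.00279 (GSTP1) to 0.0399 (GSTM2). Members and lists were chosen with earlier results of these data known. Named genes were all members, up to 6 passing pathway genes per comparison by adjusted p with a mean of at least 50, and the 3 genes most like PRDX1 and TXNRD2. TXNL4B, SESN1, GGT1 and EEFSEC, named to complete a list, were chosen after their values were seen.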

Additional observations from a re-analysis of the deposited data

How the results depend on the processing

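Under ATOH8, all 3 members kept their direction and their call under all 18 alternatives, and the listed genes passing ranged from 1007 to 1424. The replicate block, whose numbers did not pair these samples (correlations of 0.06, 0.05 and 0.09), left 1424 of 1424 passing. Scaling by relative log expression put 58.5% of the calls on the higher side, against 41.4%.

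Under RSL3, directions held under every alternative except that GSTZ1 turned, from a log2 fold change of 0.44 to -0.029, with libraries scaled to listed totals. The replicate block kept all 6 members and 1720 of 1732 genes, and the count tests on recovered reads kept all 6 members (1561 genes with edgeR, 1727 with DESeq2). Scaling over listed genes left 2 members and 636 genes (totals), 3 and 926 (TMM) or 3 and 898 (relative log expression). With all annotated genes taken as tests, limma passed 0 members and 0 genes, limma with the replicate block 0 and 2, and DESeq2 0 and 193; the last 2 settings, and leaving out libraries for HMOX1, SLC3A2 and CD68, were chosen after seeing the data. Leaving out libraries gave 0 to 5 members and 1 to 1758 genes. No member passed without DMSO replicate 2 or 3, where 6 and 8 of 1744 tested genes did. None passed without RSL3 replicate 2 or 3, where 352 of 1783 and 317 of 1780 genes did. None passed without both libraries numbered 2 or both numbered 3, where 1 of 1728 and 44 of 1733 genes did. Without DMSO replicate 1, 4 members and 1500 of 1785 genes passed. Without RSL3 replicate 1, 3 members and 1000 of 1783 genes passed. Without both libraries numbered 1, 5 members and 1758 of 1778 genes passed. Such omissions change how replicate 1 weighs in each group, and replicates 2 and 3 differ little beyond counting error. For the other alternatives that ended a call, the cause was not tested. Depth limits GSTM2 most, with 10 to 52 reads per library.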
